A study of Mus musculus with 9 samples.

Results

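Met, the TAM receptors and their ligands were followed as RNA in cultured mouse neural stem cells and in tumour lines made from such cells. The 8 genes were Met, Hgf, Mst1r, Axl, Mertk, Tyro3, Gas6 and Pros1, found by their symbols among the 47729 genes of the deposited count table, and each had 1 row. All 8 lay in the table, and 7 of them passed the filter on low counts. Mst1r did not and was not tested.

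Met is a receptor tyrosine kinase that hepatocyte growth factor, the product of Hgf, activates, and Mst1r encodes its close relative Ron. Axl, Mertk and Tyro3 make up the TAM receptors, which bind the vitamin K-dependent proteins Gas6 and protein S, the latter encoded by Pros1. These ligands bridge the receptors to phosphatidylserine on dying cells and on membranes. In the brain Mertk and Axl are known from the clearance of dying cells by microglia, Tyro3 from neurons, and Met and Axl from gliomas.

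The NSC group held primary neural stem cells of wild-type genotype from the subventricular zone, a stem cell niche along the lateral ventricles, in 3 cultures numbered 1, 3 and 5. The LTR group held 3 tumour cultures (1 to 3) of genotype lgT/Ras, and the NF1 group 3 tumour cultures (1 to 3) of genotype shp53, Nf1-/-, CDK4. Per the labels the tumour cells were derived from neural stem cells, all cells came from the subventricular zone, and all were kept in the stem cell medium for up to 10 passages. The series counts the 3 cultures of each type as independent. The labels do not say whether the cultures of a tumour group were transformed separately, what drives each transgene, or which label belongs to which named line, and the age and sex of the mice are not stated.

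Total counts ran from 28600479 to 57231024. Trp53, the gene that shp53 names, was not lower in the cultures labelled NF1 (196.4 CPM against 107.6 in NSC, log2 difference 0.87 ± 0.20, adjusted p = 0.0141 by the edgeR quasi-likelihood test), so that group is called NF1-labelled here. CPM are counts scaled to library size. The library NF1 2 stood apart, with correlations of log CPM of 0.936 and 0.911 to NF1 1 and NF1 3. It lay nearer to NSC than they did. Its correlations with the NSC libraries were 0.886 to 0.892, against 0.832 to 0.84 for NF1 1 and 0.806 to 0.815 for NF1 3. NSC 3 correlated with NSC 1 and NSC 5 at 0.958 and 0.953, against 0.991 between those 2, and results that rest on either library are given with and without it. The column headers put all NSC libraries on one lane label and all tumour libraries on another, so lane and cell type cannot be told apart between NSC and the tumour groups. Sox2, a stem cell transcription factor, measured 307.1 to 357.6 CPM in NSC, 178.5 to 275.9 across LTR and 259.2 to 331 across NF1-labelled libraries. Nes, the intermediate filament nestin, measured 1378 to 1571, 441 to 840.1 and 426.4 to 2433 CPM. Olig2, a glial progenitor factor, measured 703.7 to 902.1, 43.7 to 90 and 51.5 to 319.3 CPM.

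Met and Mertk rose and Hgf and Pros1 fell in at least 1 of the 2 tumour groups, and the differences of Axl, Tyro3 and Gas6 did not pass the test as fitted. The threshold was an adjusted p under 0.05 in the edgeR quasi-likelihood test, with Benjamini-Hochberg adjustment over the 15696 genes tested. In LTR against NSC, 1 tested member was higher (Met) and 2 were lower (Hgf and Pros1). Among all genes tested in that comparison 14.9% were higher and 20.9% lower, 35.9% in all. In the NF1-labelled group against NSC, 2 tested members were higher (Met and Mertk) and 2 were lower (Hgf and Pros1), where 10.1% of all genes were higher and 13.1% lower, 23.1% in all. LTR libraries did not overlap NSC for Met, Hgf, Gas6 and Pros1, as was so for 59% of all genes, and NF1-labelled libraries did not overlap NSC for those 4 and for Axl and Mertk, as was so for 42.3% of all genes. Both comparisons share the 3 NSC libraries. Hgf passed the count filter through its NSC libraries alone. In bulk cultures, fewer cells that carry an RNA and less of it per cell cannot be told apart.

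**Figure D1:**
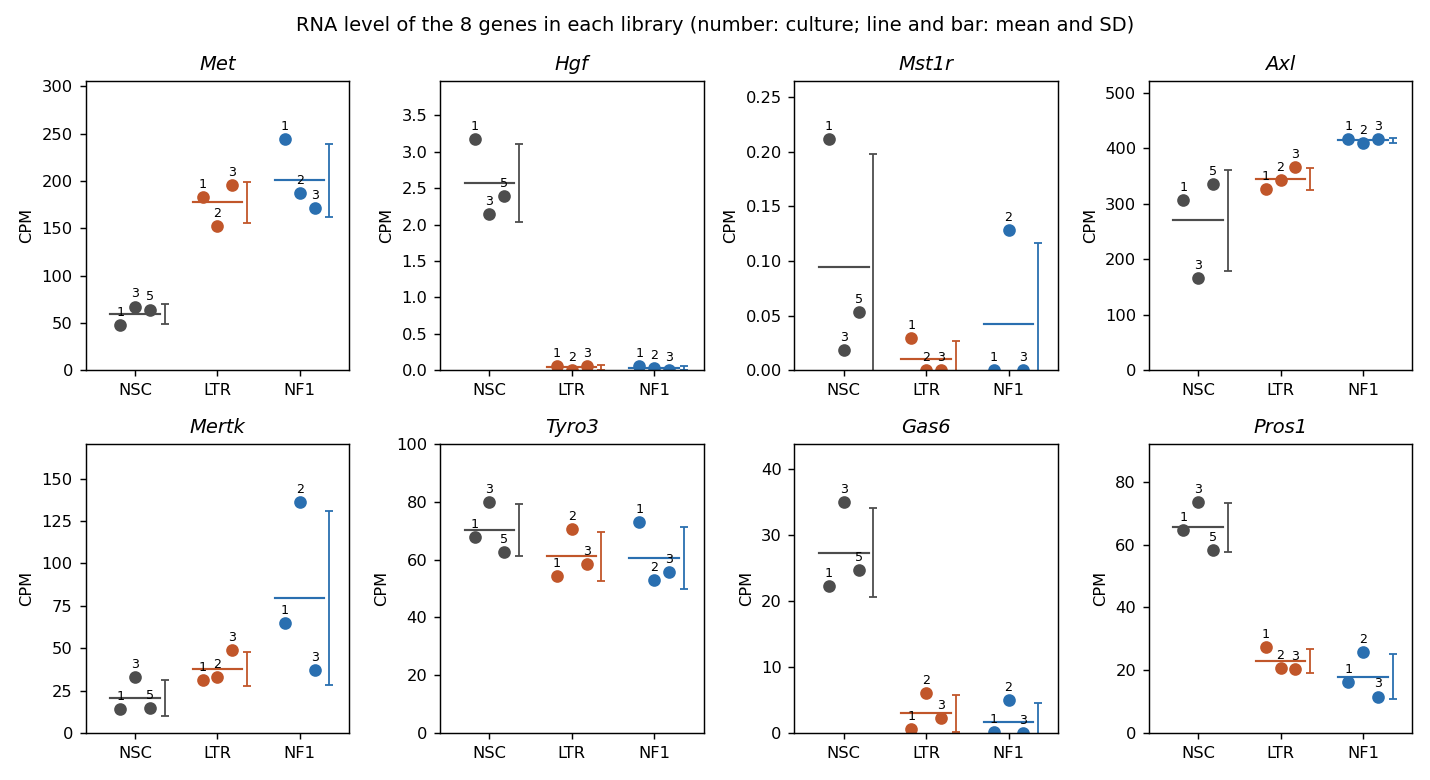
RNA level of each of the 8 genes (vertical axes, CPM, each from 0 and on its own scale) in the 9 libraries, with the culture number above each point, the group mean as a line and the SD as a bar cut at 0. Met stands higher and Hgf, Gas6 and Pros1 lower in every tumour library than in any NSC library.

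Met was higher in both tumour groups, about 3-fold. Met (ENSMUSG00000009376, GRCm38 chromosome 6, 17463800 to 17573980, plus strand) measured 47.5, 67.3 and 64.1 CPM in NSC 1, 3 and 5. In LTR 1 to 3 it measured 183.4, 152.9 and 195.8 CPM, and in NF1 1 to 3 it measured 244.5, 187.2 and 171.1 CPM. No tumour library fell near the NSC range, and the tumour groups overlapped each other. The mean was 59.7 ± 10.6 CPM in NSC, 177.3 ± 22.1 in LTR and 200.9 ± 38.6 in NF1-labelled cultures (SD, n = 3 each). By the edgeR test Met rose 2.97-fold in LTR (log2 difference 1.57 ± 0.22 SE, adjusted p = 0.00156). It rose 3.37-fold in the NF1-labelled group (1.75 ± 0.22, edgeR adjusted p = 0.00161). Without NSC 3 and NF1 2 the log2 differences were 1.72 and 1.95.

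The Met promoter is shown because Met is the member that rose in both groups. Of the 250 bases before the RefSeq start, 157 lie in an exon of Met in the GENCODE annotation, whose first start is further upstream. Only 30 bases around a match to the AP-1 motif TGANTCA (in capitals) are printed, and all 30 lie inside that exon. They come from chr6:17463892-17463921, plus strand, build GRCm38.p6. The match lies 54 bases before the RefSeq start.
Met: tgttgcccggcTGAGTCAcgggccgggcag
Of 32851 RefSeq promoter windows of this length, 6.75% hold the AP-1 motif on either strand, and among the 8 genes the Met window was the only one with a match. The Met window also holds 3 matches to the GC box GGGCGG and a palindrome in which the hypoxia core ACGTG and the E-box CANNTG overlap. The 3 motifs occur in 32.7%, 16.6% and 66.2% of all windows. These are matches of letters, and binding was not measured.

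Hgf, the ligand of Met, was present at a low level in NSC and nearly absent from the tumour libraries. Hgf (ENSMUSG00000028864, chromosome 5, 16553495 to 16620152, plus strand) had 120, 119 and 89 counts in NSC 1, 3 and 5, which is 3.18, 2.15 and 2.39 CPM. It had 2, 0 and 2 counts in LTR 1 to 3 and 2, 1 and 0 counts in NF1 1 to 3. All 6 tumour libraries were below the 3 counts taken as the detection floor of a library. The NSC level was 58.7 times that of LTR, with an exact 95% counting interval of 22.7 to 216.8 on 328 and 4 counts. It was 79.6 times that of the NF1-labelled group, with an interval of 27 to 388.2 on 328 and 3 counts. Such intervals and floors cover counting error only. The edgeR adjusted p was 0.00168 for LTR and 0.00213 for the NF1-labelled group.

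Hgf is known as a product of mesenchymal cells, and most tested markers of mural cells and fibroblasts were also lower in the tumour groups. The sum of 9 such markers was 304.2 to 2547 CPM in NSC, 20.7 to 157.2 across LTR and 8.4 to 44.2 across NF1-labelled libraries. Lum and Dcn were near the floor in NSC already, with 2, 5 and 3 counts and 4, 3 and 3 counts. Rgs5 went the other way in NF1 2, at 38.4 CPM against 0.291, 0.217 and 0.51 in NSC 1, 3 and 5. In NF1 1 and NF1 3 Rgs5 measured 0.261 and 0.239 CPM. By the edgeR test 5 of the 6 tested markers were lower in each tumour group, and Col3a1 was higher in LTR (66.3 ± 74.7 against 1.03 ± 0.791 CPM, adjusted p = 0.00609). Within NSC, the collagen gene Col1a1 measured 16.5 CPM in NSC 3 against 487.1 and 621.2 in NSC 1 and 5, and the actin gene Acta2 165 against 796.4 and 917.9. Hgf was 2.15 CPM in NSC 3. The part of such cells in the Hgf difference was not tested.

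Mst1r, which encodes Ron, was at or near the floor throughout. It (ENSMUSG00000032584, chromosome 9, 107906873 to 107920383, plus strand) had 8, 1 and 2 counts in NSC, 1, 0 and 0 in LTR and 0, 4 and 0 in NF1-labelled libraries. A floor of 3 counts lay between 0.0541 and 0.114 CPM across libraries. The 11 NSC counts, 8 of them in NSC 1, were 7.88 times the single LTR count after scaling, with an exact 95% counting interval of 1.14 to 339.1. Against the 4 counts of the NF1-labelled group, all in NF1 2, the ratio was 2.0 with an interval of 0.594 to 8.63.

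Among genes that activate or restrain the ligands of Met and Ron, 4 of 11 listed were tested. In each tumour group 2 were higher and 1 was lower. Over all genes tested 14.9% were higher and 20.9% lower in LTR, and 10.1% and 13.1% in the NF1-labelled group. Plau encodes urokinase, a secreted protease that can activate pro-HGF. Its level of 3.22 ± 0.799 CPM in NSC rose to 70.1 ± 36.4 CPM for LTR and 70.4 ± 24.9 for the NF1-labelled group (SD, n = 3, edgeR adjusted p = 0.000853 and 0.00116). Spint1 encodes HAI-1, a membrane inhibitor of such proteases. It had 0, 3 and 6 counts in the NSC libraries and rose to 20.6 ± 5.67 CPM in LTR and 1.97 ± 0.585 in NF1-labelled cultures (edgeR adjusted p = 0.000633 and 0.00333). St14, the membrane protease matriptase, was lower (1.19 ± 0.285 CPM in NSC, 0.0735 ± 0.103 and 0.105 ± 0.134 in the tumour groups, edgeR adjusted p = 0.0239 and 0.0479). The call was lost without NSC 1, NSC 5, LTR 1 or LTR 3 in LTR, and without NSC 1, NSC 3, NSC 5, LTR 3, NF1 1 or NF1 3 in the NF1-labelled group. The St14 adjusted p reached 0.0966 in LTR (without LTR 3) and 0.151 in the NF1-labelled group (without NF1 1). St14 passed the count filter through its NSC libraries alone, and Spint1 through its tumour libraries alone. Spint2, which encodes the related inhibitor HAI-2, did not pass (1.24 ± 0.532 CPM in NSC, 0.746 ± 0.627 in LTR and 0.675 ± 0.862 in NF1-labelled cultures).

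All 29 genes listed as adaptors, phosphatases and partners of Met were tested. In LTR 4 were higher and 9 lower, with a median log2 difference of -0.46, against -0.06 over all genes tested. In the NF1-labelled group 3 were higher and 7 lower (median -0.24, all genes 0.00). Over all genes tested 14.9% were higher and 20.9% lower in LTR, and 10.1% and 13.1% in the NF1-labelled group. The counts of higher genes were near those shares. Gab1, the docking protein that Met recruits, fell from the NSC level of 95.9 ± 28.8 CPM to 7.96 ± 1.01 in LTR and 15.2 ± 9.66 CPM with the NF1 label (edgeR adjusted p = 0.00131 and 0.00431), and to 9.77 CPM without NF1 2. Ptprj, a receptor phosphatase that can act on Met, fell from 123.1 ± 9.78 CPM to 19.1 ± 4.72 and 30.4 ± 4.96 (edgeR adjusted p = 0.0004 and 0.00126). Sh3kbp1 encodes CIN85, a Cbl partner in receptor endocytosis. It rose from 23.2 ± 4.4 CPM to 149.5 ± 27.5 and 179.4 ± 60 (edgeR adjusted p = 0.000718 and 0.000689). These 3 genes kept their calls when any 1 library was left out.

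Ptpn2, a phosphatase of the T cell type, rose from 29.3 ± 3.14 CPM to 75.3 ± 9.47 in LTR (edgeR adjusted p = 0.0068) and measured 54.3 ± 20.2 in NF1-labelled cultures (adjusted p = 0.0454). The latter call was lost in 7 of the 9 fits that left out a library, up to an adjusted p of 0.179 without NF1 3. Cd44, a co-receptor of Met, had the highest sum of both group means among the listed genes that did not pass (463.5 ± 37.3, 366.6 ± 46.9 and 491.1 ± 84.6 CPM in NSC, LTR and NF1-labelled cultures). The count of higher genes fell to 2 in LTR without NSC 1. In the NF1-labelled group it fell to 1 without NSC 1, NSC 3, NSC 5, LTR 1, LTR 3 or NF1 1.

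**Figure D2:**
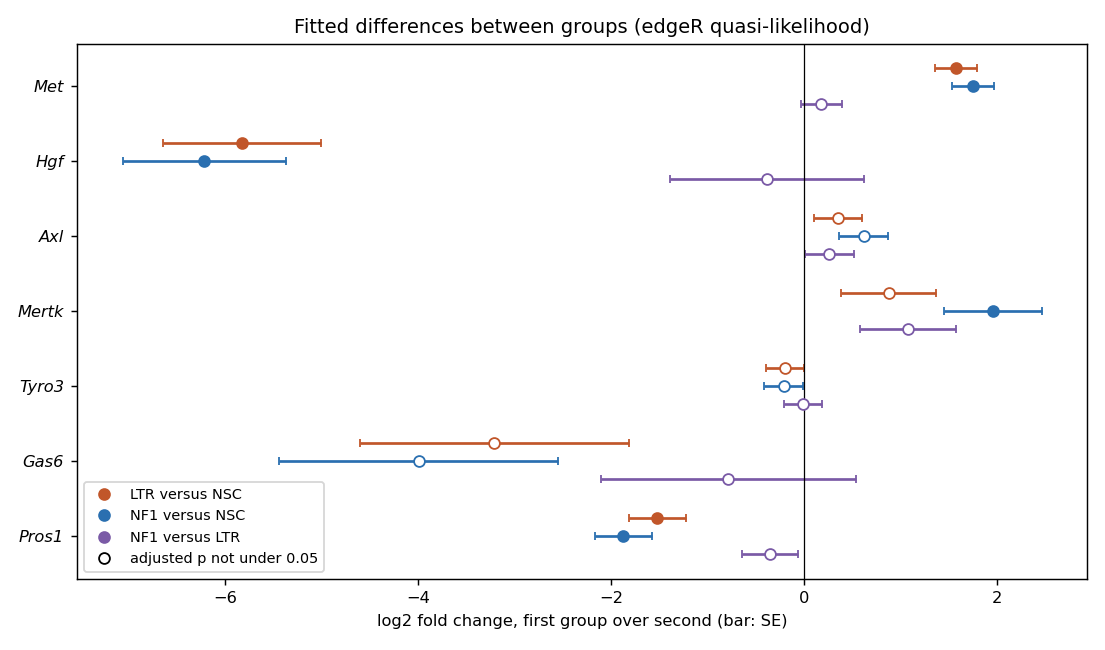
Fitted log2 fold change (horizontal axis, bars are SE) of the 7 tested genes in the 3 comparisons, with filled points where the adjusted p was under 0.05. Met lies to the right and Hgf and Pros1 to the left of 0 in both tumour groups against NSC, and no filled point belongs to NF1-labelled against LTR.

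Axl was the most abundant TAM receptor in all 9 libraries, and its difference between groups did not pass the test. Axl (ENSMUSG00000002602, chromosome 7, 25757273 to 25788705, minus strand) measured 307.1, 166.9 and 336 CPM in NSC 1, 3 and 5, 326, 343.1 and 366.1 in LTR 1 to 3, and 416.9, 408.6 and 416.9 in NF1 1 to 3. NSC 3 was the lowest library, the NSC and LTR groups overlapped, and all 3 NF1-labelled libraries lay above the rest. The means were 270 ± 90.4, 345.1 ± 20.1 and 414.1 ± 4.77 CPM (SD, n = 3 each). The log2 difference was 0.35 in LTR (95% interval -0.21 to 0.92, edgeR adjusted p = 0.289). It was 0.62 in the NF1-labelled group (interval 0.05 to 1.18, unadjusted, edgeR adjusted p = 0.104). Without NSC 3 and NF1 2 the 2 differences were 0.16 and 0.43.

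Mertk rose in the NF1-labelled group, where its level varied most. Mertk (ENSMUSG00000014361, chromosome 2, 128698956 to 128802894, plus strand) measured 14, 33 and 14.5 CPM in NSC 1, 3 and 5, 31.2, 32.9 and 49 in LTR 1 to 3, and 65.1, 136.5 and 37.1 in NF1 1 to 3. NF1 2 was the highest library, and NSC 3 stood at the level of LTR 1 and LTR 2. The means were 20.5 ± 10.8 CPM in NSC, 37.7 ± 9.83 in LTR and 79.6 ± 51.2 in NF1-labelled cultures (SD, n = 3 each). Against NSC the NF1-labelled group was 3.88-fold higher (log2 difference 1.95 ± 0.51, edgeR adjusted p = 0.0236). The difference was 1.33 without NF1 2 (adjusted p = 0.0281), 2.54 without NSC 3 (0.0118) and 1.89 without both (0.00192). The call was lost without NSC 1 (edgeR adjusted p = 0.0906) or NSC 5 (0.0889). In LTR the log2 difference of 0.88 ± 0.49 did not pass (edgeR adjusted p = 0.188), but it was 1.53 without NSC 3 (adjusted p = 0.0403) and 1.46 without NSC 3 and NF1 2 (0.00408).

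Microglia also carry Mertk and Axl, and their markers were low in every library. The sum of 15 microglial and myeloid markers was 4.37 to 12.5 CPM in NSC, 2.88 to 5.45 across LTR and 4.75 to 23.2 across NF1-labelled libraries. Cx3cr1, Itgam, Tyrobp, Adgre1, Ctss, C1qa, C1qb and C1qc had no count in any of the 6 tumour libraries. Tmem119, on the same list, was higher in LTR (1.14 against 0.158 CPM in NSC, edgeR adjusted p = 0.0193), and P2ry12 was lower (0.00995 against 1.76 CPM, 0.00627). Of the NF1 2 sum, Cd68, a lysosomal protein, gave 22.1 CPM, against 3.91 and 4.47 CPM of Cd68 in NF1 1 and NF1 3. Csf1r, the receptor of microglial growth factors, measured 1.46 CPM in NSC 3 against 0.185 and 0.268 in NSC 1 and 5, and P2ry12 measured 3.16 against 0.873 and 1.23 CPM. Cx3cr1, Tyrobp, Fcer1g, Adgre1, Ctss, C1qa, C1qb and C1qc were also highest in NSC 3 among NSC libraries. Of these, Ctss measured 1.7 CPM against 0.397 and 0.188, and C1qb 0.83 against 0.0529 and 0.107. The remaining listed markers did not stand out in NSC 3. Itgam measured 0.108 CPM there against 0 and 0.107, and Tmem119 0.126 against 0.106 and 0.241. Cd68 measured 1.44 CPM there against 1.85 and 2.68, Ptprc 0.289 against 0.212 and 0.375, and Aif1 0.0541 against 0.0794 and 0.0536. The part of microglia in the NSC 3 level of Mertk was not tested.

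Tyro3 held a similar level in all groups, and no difference was found. Tyro3 (ENSMUSG00000027298, chromosome 2, 119797733 to 119818104, plus strand) measured 67.8, 80.1 and 62.6 CPM in NSC, 54.2, 70.5 and 58.5 in LTR, and 72.9, 52.9 and 55.8 in NF1-labelled libraries. The libraries of the 3 groups overlapped. The log2 difference was -0.20 in LTR (95% interval -0.65 to 0.24, edgeR adjusted p = 0.45) and -0.21 in the NF1-labelled group (interval -0.66 to 0.23, adjusted p = 0.456). Its sign was not stable, at 0.03 in LTR without NSC 3 and 0.04 in the NF1-labelled group without NSC 3 and NF1 2.

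Pros1 and Gas6, the TAM ligands, were lower in every tumour library than in any NSC library, and Pros1 passed the test. Pros1 (ENSMUSG00000022912, chromosome 16, 62854307 to 62929346, plus strand) measured 64.7, 73.8 and 58.2 CPM in NSC 1, 3 and 5. In LTR 1 to 3 it measured 27.3, 20.7 and 20.4 CPM, and in NF1 1 to 3 it measured 16.3, 25.8 and 11.6 CPM. The tumour groups overlapped each other and neither reached the NSC range. Pros1 was 2.87-fold lower in LTR (log2 difference -1.52 ± 0.29, edgeR adjusted p = 0.00545). It was 3.66-fold lower in the NF1-labelled group (-1.87 ± 0.30, edgeR adjusted p = 0.00353). Without NSC 3 and NF1 2 the differences were -1.37 and -2.08.

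Gas6 (ENSMUSG00000031451, chromosome 8, 13465374 to 13494490, minus strand) had 841, 1942 and 919 counts in NSC 1, 3 and 5, which is 22.3, 35 and 24.6 CPM. It had 20, 159 and 75 counts in LTR 1 to 3 (0.593, 6.07 and 2.24 CPM) and 7, 154 and 0 counts in NF1 1 to 3 (0.203, 4.93 and 0 CPM). The 6 tumour libraries thus ran from no count to 159, and LTR 2 and NF1 2 were the highest. The log2 difference was -3.21 ± 1.39 in LTR (edgeR adjusted p = 0.0973) and -4.00 ± 1.45 in the NF1-labelled group (0.074), so neither passed. Without NF1 2 both did, at -3.21 (adjusted p = 0.00715) and -7.93 (0.00118), and without NF1 3 the LTR difference did (0.037). Gas6 shares 34 exon bases with Tmem255b on the other strand, which had 49 counts over all libraries.

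The promoter windows of Hgf, Gas6 and Pros1 are shown because these 3 ligand genes were lower in all tumour libraries. Each is the 250 bases before a RefSeq start, 5′ to 3′ on the strand of the gene, in build GRCm38.p6. None of those shown touches a GENCODE exon of its own gene, and exons of other genes were not compared. Hgf has a second RefSeq start, whose window (chr5:16553651-16553900) is not shown and has 150 bases in an Hgf exon. Capitals mark the GC box GGGCGG or its reverse complement. The windows are chr5:16553245-16553494 (plus strand) for Hgf, chr8:13494536-13494785 (minus strand) for Gas6 and chr16:62854057-62854306 (plus strand) for Pros1.
Hgf: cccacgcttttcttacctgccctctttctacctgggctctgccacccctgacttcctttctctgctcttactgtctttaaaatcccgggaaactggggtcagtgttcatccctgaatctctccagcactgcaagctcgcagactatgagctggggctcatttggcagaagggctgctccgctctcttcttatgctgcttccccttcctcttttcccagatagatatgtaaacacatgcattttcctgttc
Gas6: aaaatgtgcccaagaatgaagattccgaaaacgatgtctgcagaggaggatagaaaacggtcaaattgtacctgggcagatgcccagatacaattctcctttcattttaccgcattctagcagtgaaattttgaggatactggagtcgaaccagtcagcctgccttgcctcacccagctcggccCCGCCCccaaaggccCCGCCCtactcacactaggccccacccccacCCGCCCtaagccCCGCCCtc
Pros1: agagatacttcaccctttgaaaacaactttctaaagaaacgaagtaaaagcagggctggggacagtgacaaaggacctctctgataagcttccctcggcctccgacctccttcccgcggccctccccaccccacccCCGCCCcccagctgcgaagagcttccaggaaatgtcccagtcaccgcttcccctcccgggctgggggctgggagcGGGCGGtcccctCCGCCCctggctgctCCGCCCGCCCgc
The Pros1 window holds 5 GC boxes, the Gas6 window 4 and the Hgf window none. GC content was 64.4% for Pros1, 54.8% for Gas6 and 50.8% for Hgf, against 74% for Met. None of the 3 holds AP-1, the TEAD motif GGAATG (12.6% of all windows, 1 match before Axl) or ACGTG. A missing match says only that these letters are not in the window.

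Per length of exon, the balance of TAM receptors to ligands differed between NSC and tumour libraries. The summed level of Axl, Mertk and Tyro3 was 69.7 ± 14.1 CPM per kb in NSC, 87.1 ± 6.38 in LTR and 110.4 ± 10.4 in NF1-labelled cultures (SD, n = 3 each). The summed level of Gas6 and Pros1 was 26.8 ± 4.38, 6.75 ± 0.801 and 5.05 ± 2.83 CPM per kb. Receptor over ligand RNA ranged from 1.69 to 3.35 in NSC, whereas it was 11.7 to 15.9 for LTR libraries and 14.7 to 35.4 for NF1-labelled ones, so the NSC range lay apart from both. The ratio joins members chosen with earlier results known, so it is given as a description with no test.

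Axl made up most of the TAM receptor RNA in each group. Its share was 75.4% ± 11.8 in NSC, 78.8% ± 1.30 in LTR and 75% ± 7.77 in NF1-labelled cultures (SD, n = 3 each). The lowest shares were 61.8% in NSC 3 and 67% in NF1 2, the 2 libraries with the highest Mertk shares (14.2% and 26%). Without them the NSC share was 82.2% and the NF1-labelled share 79%. Gas6 made up 39.7% ± 3.90 of the ligand RNA in NSC, 16.7% ± 14.4 in LTR and 8.47% ± 13 in NF1-labelled cultures. The NF1-labelled libraries stood at 1.96, 23.5 and 0%, so the mean without NF1 2 was 0.978%.

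**Figure D3:**
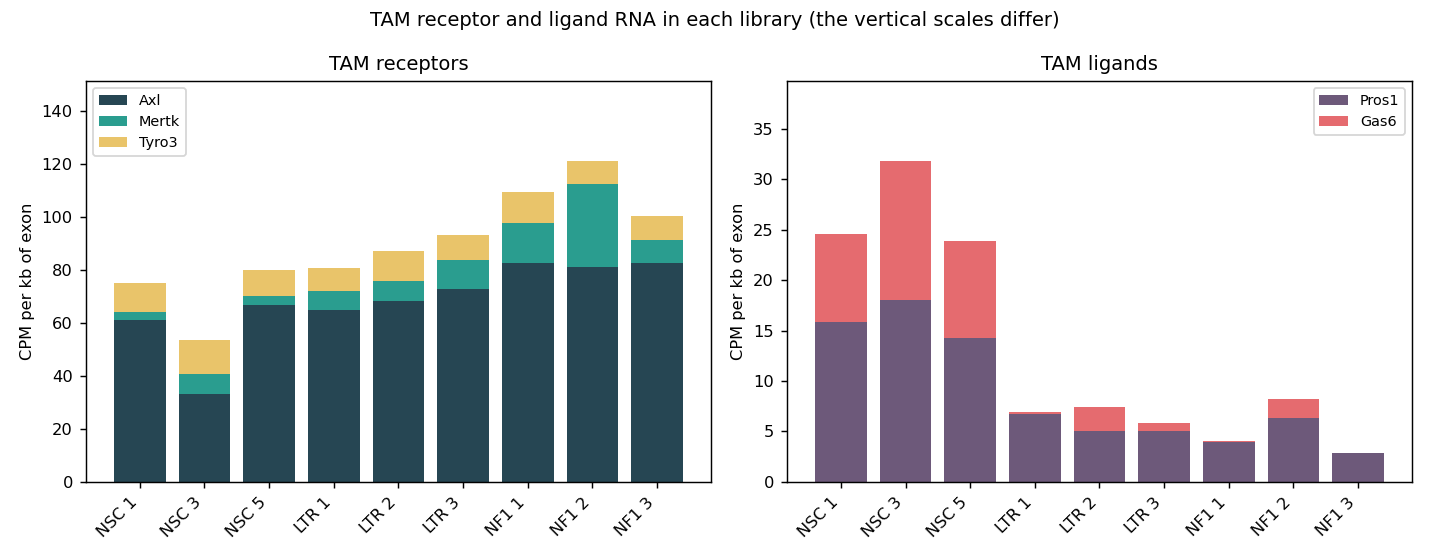
Stacked levels (vertical axes, CPM per kb of exon, from 0, on different scales) of the 3 TAM receptors and the 2 TAM ligands in the 9 libraries. Axl fills most of every receptor bar, and the ligand bars of the 6 tumour libraries, at most 8.25, stay below those of NSC.

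Among 58 receptor tyrosine kinases ranked per length, Axl stood second in NSC and first in all 6 tumour libraries. It measured 53.6 ± 18 CPM per kb in NSC, after Ddr1, a collagen receptor (126.3 ± 6.41), and before Fgfr1, a fibroblast growth factor receptor (29.2 ± 5.58). In LTR it measured 68.6 ± 3.99, before Ryk, a Wnt receptor (29.5 ± 1.41), and Epha2, an ephrin receptor (25.8 ± 3.75). In NF1-labelled cultures it measured 82.3 ± 0.948, before Ryk (30.9 ± 6.09) and Ddr1 (30.3 ± 26.6). Axl was 11.8% ± 3.52 of all this RNA in NSC, 25.4% ± 1.51 in LTR and 25.5% ± 5.77 in NF1-labelled cultures. Ddr1 measured 572 to 633.2 CPM in NSC libraries, 57.3 to 65.8 in LTR and 48 to 288.3 in NF1-labelled ones. Met rose in the order from place 19 in NSC (7.77 ± 1.38 CPM per kb) to 4 in LTR (23.1 ± 2.88) and 5 in NF1-labelled cultures (26.2 ± 5.03). Its SD overlapped that of Epha2 but not that of Ryk in LTR, and those of both Ryk and Ddr1 in NF1-labelled cultures. Mertk stood at 21, 12 and 6, Tyro3 at 10, 9 and 12, and Mst1r at 50, 52 and 49. The place of Ddr1 in the NF1-labelled group rested on NF1 2. Without that library Ddr1 measured 15.3 CPM per kb and stood at place 6, Met (27.1) at 3, Mertk (11.8) at 8 and Tyro3 (10.4) at 9, while Axl (82.8) and Ryk (34.4) kept places 1 and 2.

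**Figure D4:**
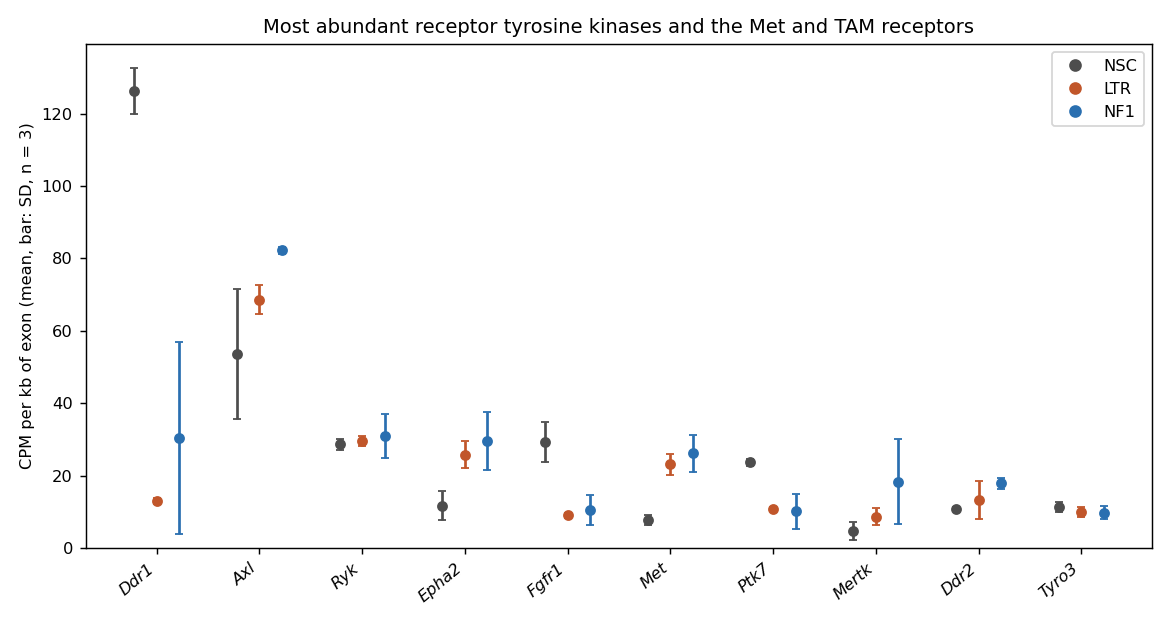
Mean level (vertical axis, CPM per kb of exon, bars are SD over 3 cultures) of the Met and TAM receptors and of the 5 most abundant receptor tyrosine kinases of each group. Axl is first in both tumour groups, and Ddr1 leads in NSC at 126.3.

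Of 53 other receptor tyrosine kinases, 42 were tested. In LTR 4 were higher and 16 lower (median log2 difference -1.12, all genes -0.06). In the NF1-labelled group 4 were higher and 14 lower (median -1.17, all genes 0.00), and 25 were lower without NF1 2. Over all genes tested 14.9% were higher and 20.9% lower in LTR, and 10.1% and 13.1% in the NF1-labelled group. The lower genes numbered 9 without NSC 1, NSC 5 or NF1 1, and the higher ones 2 without NSC 5. Egfr, the epidermal growth factor receptor, fell from 190.8 ± 18.3 CPM to 8.99 ± 1.98 in LTR and 3.13 ± 1.9 in NF1-labelled cultures (edgeR adjusted p = 0.000458 and 0.000203). Ephb2, an ephrin receptor, fell from 127.4 ± 42.4 CPM to 7.86 ± 1.66 and 17.4 ± 11.7 (edgeR adjusted p = 0.00128 and 0.00447). Flt3, the receptor of a blood cell growth factor, rose from 0.063 ± 0.0871 CPM to 36.1 ± 14.6 and 35.5 ± 10.8 (edgeR adjusted p = 0.0004 and 0.000468). It had 1, 9 and 0 counts in NSC 1, 3 and 5 and passed the count filter through its tumour libraries alone. Erbb3, a neuregulin receptor, rose from 0.725 ± 0.275 to 5.11 ± 2.37 CPM in LTR (edgeR adjusted p = 0.00478). Flt1, a VEGF receptor, rose from 4.42 ± 2.14 to 31.6 ± 3.89 CPM in LTR and 73.8 ± 71.4 in NF1-labelled cultures (edgeR adjusted p = 0.0114 and 0.00492). NF1 2 held 155.4 CPM of Flt1 against 42.6 and 23.3 in NF1 1 and NF1 3, and without NF1 2 the group mean was 32.9 CPM (adjusted p = 0.000788). Without NF1 2 the NF1-labelled means of Egfr and Ephb2 were 2.04 and 11 CPM. Of those that did not pass, the one with the highest sum of both group means was Insr for LTR (125.5 ± 31.6 CPM against 152 ± 15.2 in NSC). For the NF1-labelled group it was Ntrk2, through its NSC level (9.7 ± 16.8 against 352.9 ± 38.4 CPM in NSC, edgeR adjusted p = 0.0824, and 0.000356 without NF1 2).

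Of 11 genes that mature TAM ligands or shed and restrain the receptors, 10 were tested. In LTR 1 was higher and 4 were lower (median log2 difference -0.67, all genes -0.06). In the NF1-labelled group 1 was higher and 1 lower (median -0.50, all genes 0.00). Over all genes tested 14.9% were higher and 20.9% lower in LTR, and 10.1% and 13.1% in the NF1-labelled group. The counts of the NF1-labelled group were near those shares. Socs1, a suppressor of cytokine signals that TAM receptors induce, rose from 3.04 ± 1.21 CPM to 15.2 ± 7.64 in LTR and 27.7 ± 6.0 in NF1-labelled cultures (edgeR adjusted p = 0.00714 and 0.0034). Lgals3, galectin-3, described as a Mertk ligand, fell from 219 ± 85 CPM to 17.6 ± 20.1 and 34.6 ± 15.7 (edgeR adjusted p = 0.0127 and 0.0479). Its call was lost without LTR 3 in LTR (adjusted p = 0.0541) and without NSC 1, NSC 3, NSC 5, LTR 3, NF1 1 or NF1 3 in the NF1-labelled group (up to 0.142 without NF1 1). Without LTR 2 the LTR mean was 6.14 CPM. Adam17, a sheddase of Axl and Mertk, fell from 105.6 ± 4.27 to 65 ± 5.13 CPM in LTR (edgeR adjusted p = 0.0165), but the call was lost without NSC 1, NSC 3, LTR 1, LTR 2 or LTR 3 (adjusted p of 0.0516 to 0.0656). Without LTR 3 none of the 10 was lower in LTR, without LTR 2 it was 1, and without NSC 1, NSC 3 or LTR 1 it was 2. Without NF1 2 there were 4 lower in the NF1-labelled group. Calu, an inhibitor of the carboxylation of vitamin K-dependent proteins, had the highest sum of both group means among those that did not pass (896.3 ± 80.6, 608.8 ± 115.7 and 634.5 ± 66.3 CPM).

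Of 25 genes for exposing phosphatidylserine and engulfing cells that show it, 22 were tested. In LTR 3 were higher and 7 lower (median log2 difference -0.83, all genes -0.06). In the NF1-labelled group 2 were higher and 3 lower (median -0.31, all genes 0.00). Over all genes tested 14.9% were higher and 20.9% lower in LTR, and 10.1% and 13.1% in the NF1-labelled group. The counts of the NF1-labelled group and the higher count of LTR were near those shares. Itgav and Itgb5 encode the integrin chains that bind Mfge8-coated cells. Itgav fell from 719.8 ± 18.8 CPM to 156.6 ± 42.4 in LTR and 244.9 ± 101.1 in NF1-labelled cultures (edgeR adjusted p = 0.00182 and 0.00907). Itgb5 fell from 264.3 ± 17.8 CPM to 82.5 ± 11.4 and 94.4 ± 9.87 (edgeR adjusted p = 0.000718 and 0.00132). Mfge8, the bridging protein itself, rose from 166.1 ± 21.8 CPM to 272.4 ± 62.6 and 300.3 ± 53 (edgeR adjusted p = 0.035 and 0.0256). Itgb3, another partner of Itgav, rose from 2.22 ± 0.514 to 8.72 ± 4.9 and 11.7 ± 4 CPM (edgeR adjusted p = 0.0161 and 0.0114).

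The Mfge8 and Itgb3 calls did not hold in all fits. Without NSC 1 the edgeR adjusted p was 0.126 in LTR and 0.105 in the NF1-labelled group for Mfge8, and 0.0612 and 0.0508 for Itgb3. The Mfge8 call was also lost without NSC 5 in both groups, without LTR 1 or LTR 2 in LTR, and without NF1 1 or NF1 3 in the NF1-labelled group. Without NSC 1 none of the 22 was higher in either group, and 1 was higher without NSC 5 in both, without LTR 1 in LTR, and without NF1 1 or NF1 3 in the NF1-labelled group. Without NF1 2 the lower genes numbered 13 in LTR and 9 in the NF1-labelled group. Rac1, the GTPase that drives engulfment, had the highest sum of both group means among those that did not pass (481 ± 68.4, 405.3 ± 21 and 404.7 ± 55.1 CPM).

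Between the 2 tumour groups no member passed, and 0% of all genes did by the edgeR test as fitted. At an unadjusted p under 0.05 there were 1596 genes, DESeq2 called 330 and limma-voom 1. The log2 difference, NF1-labelled over LTR, was 0.18 for Met, 0.26 for Axl, 1.08 for Mertk, -0.01 for Tyro3, -0.79 for Gas6, -0.35 for Pros1 and -0.39 for Hgf, with edgeR adjusted p from 0.507 for Mertk to 0.992 for Tyro3. The 95% interval of the Met difference was -0.29 to 0.65 and that of Mertk -0.03 to 2.19. Axl libraries of these groups did not overlap, as was so for 12.5% of all genes tested. None of the 5 gene lists had a gene past the threshold here.

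Met, Hgf and Pros1 passed under each alternative in which they were tested, in both comparisons with NSC. That was 19 alternatives for Met and Pros1 and 18 for Hgf, which a filter of 10 CPM in 3 libraries removed. Hgf passed the count filter through its NSC libraries alone, where it was high, so its passes are not support like those of Met and Pros1. Mertk passed in 16 of 19 in the NF1-labelled group and in 2 of 19 in LTR. Gas6 passed in 7 of 19 in LTR and 6 of 19 in the NF1-labelled group. Axl and Tyro3 passed in none.

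**Figure D5:**
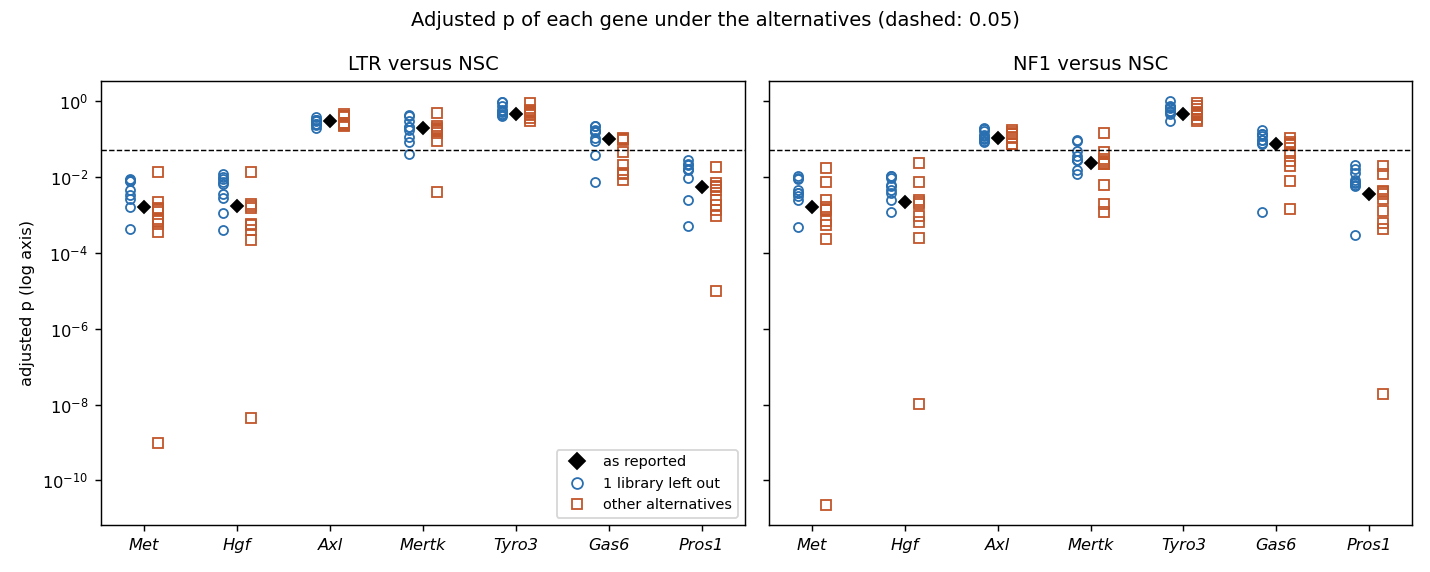
Adjusted p (vertical axis, log scale) of each tested gene for LTR and for NF1-labelled cultures against NSC, as reported (diamonds), with 1 library left out (circles) and under the other alternatives (squares), with 0.05 dashed. All marks of Met, Hgf and Pros1 lie below the line, those of Axl and Tyro3 above it, and those of Mertk and Gas6 on both sides.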

How the data were processed

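RNA of the 9 cultures was extracted with the RNeasy Plus kit, and libraries were built with the NEBNext Ultra kit, as the labels' protocols state. The file that the authors deposited holds raw counts per gene. For the mapping and counting, the submitters' processing notes list GRCm38, mm10, HTSeq, DESeq2 1.8.2 and STAR 2.5.2a. Neither annotation release nor strandedness is stated, so counts of overlapping genes are uncertain. Coordinates and exon lengths were taken from GENCODE M21 (GRCm38), which has 47310 of the 47729 identifiers. Promoters came from RefSeq (GRCm38.p6), and all 8 genes matched.

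With edgeR 4.0.16 (R 4.3.3), a quasi-likelihood model of the 3 groups was fitted over all 9 libraries. TMM scaling was used, and filterByExpr at a minimum count of 10 left 15696 genes, over which p-values were adjusted by Benjamini-Hochberg. CPM are TMM-scaled, and a prior count of 0.125 enters fitted fold changes. The script was tested on simulated counts with the same spread for every gene. That is simpler than these data, so it checks the code and not the calls made here. P-values measure the spread between cultures. Libraries within groups differed by a chi-square of 13.4 to 395.2 per degree of freedom, so none is a repeat sequencing of another library. The closest pair was NSC 1 and NSC 5, at 13.4, and the next LTR 1 and LTR 3, at 39.2. The check cannot show that cultures are independent.

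Alternatives were DESeq2 1.42.0, limma-voom (limma 3.58.1), other scalings and filters, a fit of the 6 libraries alone, a block for the replicate number, and left-out libraries. From each list and comparison the text names up to 2 passing genes per direction with the smallest adjusted p and the gene with the highest sum of both group means among the others, and it names the 3 most abundant receptor kinases per group, Sox2, Nes and Olig2. Trp53 and the markers given by library were chosen after their values were seen. Members, lists, rules and the library pair left out were chosen with earlier results of these data known.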

Additional observations from a re-analysis of the deposited data

How the results depend on the processing

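Depth limited Hgf and Mst1r, whose tumour libraries held 4 counts or fewer. Over all genes, 2346 were higher and 3288 lower in LTR than in NSC, 1578 and 2053 in the NF1-labelled group, and 0 and 0 between the tumour groups. With a filter of 10 CPM in 3 libraries, 2133 were lower in LTR, 941 higher and 1162 lower in the NF1-labelled group, and 1 member was lower in each, since Hgf was removed. Without NF1 2 and NSC 3, 3693 were higher in LTR, 3387 higher and 4098 lower in the NF1-labelled group, and 28 higher and 76 lower between the tumour groups. Members higher in LTR then numbered 2. Between the tumour groups DESeq2 gave 198 higher and 132 lower, limma-voom 0 and 1, and no filter 29 and 23. Leaving out 1 library gave 1077 (NSC 1) to 3276 (NF1 2) higher and 1963 (LTR 3) to 4364 (NF1 2) lower genes in LTR, 598 (NSC 1) to 2898 (NF1 2) higher and 1085 (NF1 1) to 4002 (NF1 2) lower in the NF1-labelled group, and 0 to 7 higher and 0 to 27 lower between the tumour groups. Members higher ran from 1 to 2 and lower from 2 to 3 in each comparison with NSC. The cause of these shifts was not tested.

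No pairing of cultures by replicate number was seen. Same-numbered LTR and NF1-labelled libraries had correlations of deviations of 0.121, -0.0286 and -0.185. Pairs with different numbers ran from -0.135 (LTR 2 and NF1 1) to 0.133 (LTR 2 and NF1 3). With 3 cultures per group such values cannot exclude a pairing, and the labels do not state one. A replicate block by number could pair only part of the libraries. No tumour library shares the number of NSC 5, so under the block NSC 5 added nothing to the comparisons with NSC. LTR 2 and NF1 2 had no NSC partner. Shifts under the block thus cannot be told apart from those of leaving out NSC 5. With this block, 1026 genes were higher in LTR and 546 in the NF1-labelled group. Of the calls, 29.5% and 28.1% were higher in place of 41.6% and 43.5%. Members higher in the NF1-labelled group fell to 1, since Mertk had an adjusted p of 0.143, while Gas6 passed in LTR (0.0201) and in the NF1-labelled group (0.0197). Under the block Socs1 missed the threshold in LTR (0.0561) and Itgav in the NF1-labelled group (0.0541), and 0 phosphatidylserine and engulfment genes were higher in either group.

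Signs turned only for differences that passed nowhere. Tyro3 turned to 0.0311 in LTR without NSC 3, to 0.0350 in the NF1-labelled group without NF1 2 and NSC 3, and, between the tumour groups, to 0.0816 without LTR 2, 0.0797 without NF1 2 and 0.0748 without NF1 2 and NSC 3. There Gas6 also turned to 0.165 without LTR 2 and Hgf to 0.0478 without NF1 3. Over the fits without 1 library, Tyro3 in LTR ran from -0.28 to 0.03, and between the tumour groups Tyro3 ran from -0.17 to 0.08, Gas6 from -4.72 to 0.16 and Hgf from -1.19 to 0.05. Besides the fits without libraries and with the block, Gas6 passed in LTR with limma-voom (0.0129), no filter (0.0453) and only the 6 libraries (0.00843), and in the NF1-labelled group with DESeq2 (0.0429), limma-voom (0.00772) and no filter (0.0258). The Axl share moved by less than 1 SD under each alternative, to between 71.5% and 82.2% in NSC.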

Other observations

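The genes whose profile over the 9 libraries was most like that of a member are given as a description. Likeness was the root mean square difference of centred log2 CPM (prior count 2) among genes of at least 1 mean CPM. Nearest to Met were Arid3a (0.127), Wipf1 (0.169) and Mfsd12 (0.177). Wipf1 measured 42.6, 121.7 and 137.9 mean CPM in NSC, LTR and NF1-labelled cultures. Nearest to Pros1 were Antxr1 (0.157), Cpped1 (0.209) and Sgsh (0.213), and Antxr1, an anthrax toxin receptor, measured 77.2, 25.5 and 21.4 mean CPM. Nearest to Hgf were Omg (0.447), Scube3 (0.53) and Adam12 (0.57), and Adam12, a membrane metalloprotease, measured 257.3, 20.7 and 9.67 mean CPM.

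Nearest to Axl were Zfp874b (0.13), Fnbp4 (0.135) and Rad52 (0.136). Nearest to Mertk were Wnt7b (0.3), Hspa1a (0.305) and Slc20a1 (0.314), and Wnt7b, a Wnt ligand, measured 163.8, 315.5 and 489 mean CPM. Nearest to Tyro3, which hardly varied, were Pak4 (0.0803), Rcc2 (0.086) and Rab35 (0.101). For Gas6 they were Slc6a15 (0.718), Hmgcll1 (0.725) and Slc43a3 (0.769). These distances are not scaled to how far a member itself varies. That range was 9.28 log2 units for Gas6, 5.84 for Hgf, 3.28 for Mertk and 0.597 for Tyro3, so distances of different members are not compared.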
